A study of Mus musculus with 9 samples.

Results

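H3K4me3, trimethylation of lysine 4 of histone H3, was called at 571 autosomal regions in both Kdm6a knockout (KO) lines and not in the wild-type (WT) line. They are called KO-only regions here. They were found by merging the 3 H3K4me3 lists on chromosomes 1 to 19 where regions shared at least 1 bp, and they made up 571 of 18007 merged regions, or 3.17%. Both KO lists had to overlap a region and the WT list had to leave it free, so the regions were chosen by their H3K4me3 calls, and their presence in those lists is not a result. H3K27ac (acetylation of lysine 27) and H3K27me3 (trimethylation of the same lysine) were measured in other libraries and were not used in the choice.

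H3K4me3 is laid down by MLL-type and SET1-type methyltransferases and is concentrated at promoters, above all those of active genes. H3K27ac marks active promoters and enhancers. H3K27me3 is written by Polycomb repressive complex 2 and covers silenced genes, and promoters that carry both H3K4me3 and H3K27me3 are known as bivalent. Kdm6a, an X-linked gene also called Utx, encodes an enzyme that takes methyl groups off H3K27 and is a subunit of complexes that methylate H3K4. Acetylation and trimethylation exclude each other on 1 histone tail, but a region can carry both when nucleosomes or cells differ.

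The libraries came from ChIP-seq, in which DNA bound to a marked histone is precipitated and sequenced. The 3 lines were a female line with KDM6A-KO, a male line with KDM6A-KO and a male line labelled KDM6A-WT, all with pancreas as source, from mice of a mixed C57BL/6-SV129 background, and grown untreated in F12/DMEM medium with EGF. The series describes its lines as coming from mouse pancreatic cancer that lacks Kdm6a, and the labels do not say how the WT line arose, which driver alleles or ages apply, or whether a line is a single clone. Each mark had 1 library per line, so no value below has a replicate check or a p-value, and no difference can be assigned to genotype rather than to the individual line. There was no female WT line, so sex and genotype cannot be told apart in the female KO line.

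Reads inside called regions differed between libraries, which bears on every comparison. H3K4me3 regions held 16144388 reads for female KO, 7432359 for male KO and 12828427 for WT. For H3K27ac they numbered 12295125, 11023981 and 3989395, and for H3K27me3 18507923, 4811961 and 2396174, so WT had the fewest reads in regions for both H3K27 marks. These sums depend on sequencing depth, enrichment and how much was called, and the total reads per library are not in the lists. The H3K27ac regions covered 201, 147 and 110 Mb in female KO, male KO and WT, and the H3K27me3 regions covered 345, 238 and 145 Mb. A region missing from a list is one that was not called, and reads below the caller's threshold are not in the lists. Shares are given with exact binomial (Clopper-Pearson) 95% intervals, which cover counting error only.

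Reads of a region were spread evenly over its length, so a read number for part of a region need not be whole. The KO-only regions were short and weak within their own lists. Their merged width had a median of 2.6 kb and ran from 0.2 to 17.4 kb, against a median of 7.2 kb for the 11646 regions in all 3 lists. In the female KO list they held a median of 47.5 H3K4me3 reads per kb of called length, from 21.4 to 336, against 162 at regions in all 3 lists. In the male KO list the median was 43.2 reads per kb, from 15 to 172, against 110. The median KO-only region stood at percentile 14.8 of the female KO list and 23.1 of the male KO list by this density. Most of these regions therefore lay in the lower part of the range in both lines.

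In the plot of H3K4me3 density the regions lay at the low end of the cloud formed by regions in all 3 lists.

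**Figure D1:**
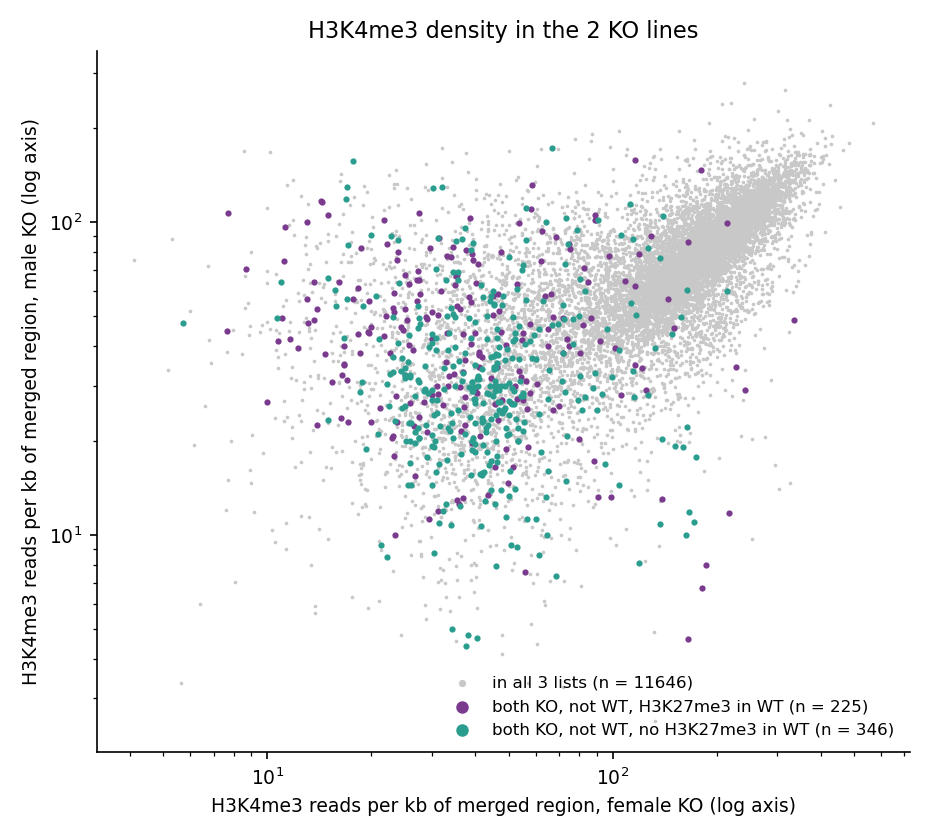
Each point is a merged H3K4me3 region, placed by its H3K4me3 reads per kb of merged region in the female KO line (x, log axis) and the male KO line (y, log axis). The 571 KO-only regions, split by H3K27me3 in WT (225 with it and 346 without), lie mostly below the 11646 regions found in all 3 lists.

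The H3K4me3 densities that the rule used were also set on the scale of the WT list, as a description. The KO densities were multiplied by the ratio of the median densities in bins that all 3 H3K4me3 lists hold, where female KO had 187 reads per kb, male KO 119 and WT 175. On that scale KO-only regions had a median of 44.4 reads per kb in female KO and 63.1 in male KO. In both KO lines all 571 lay above the lowest density of the WT list, at 18.3 reads per kb. Above its 5th percentile, at 30.6 reads per kb, lay 496 of 571, and above its 25th percentile, at 55.8 reads per kb, 136. The regions were chosen for being called in both KO lists, so these counts do not show whether WT carried H3K4me3 there.

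At the edge of the rule, 1 region on chromosome 5 (120884201 to 120889000) touched a WT region without sharing a base. It held 80 H3K4me3 reads in female KO and 169 in male KO, and its H3K27me3 covered all 4.8 kb in all 3 lines. The next nearest, on chromosome 13 (23403201 to 23403800), lay 0.6 kb from a WT region and held 32 and 12 reads. Just outside the rule, WT overlapped 0.2 kb of a 0.2 kb region on chromosome 12 (56331601 to 56331800) that held 32 reads for female KO, 27 for male KO and 25 for WT. WT also overlapped 0.2 kb of a 0.4 kb region on chromosome 13 (12741001 to 12741400), with 55, 26 and 25 reads. Such cases were few: 10 of the 571 lay within 1 kb of a WT region, and the median distance was 42.6 kb.

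The WT line carried H3K27me3 at 225 of the 571 KO-only regions, 39.4% (35.4 to 43.5%). This was above the 15.03% of all 18007 merged regions. It was also above the 10.01% at regions in all 3 lists, the 2.15% at the 1534 regions held by WT and neither KO, and the 21.6% at the 1210 regions of male KO and WT but not female KO. It was below the 50.3% at the 1879 regions of the male KO list alone and above the 7.66% at the 835 regions of the female KO list alone. An enrichment in WT H3K27me3 is thus shared with the regions of the male KO list alone, and none of these differences was tested, because each share comes from 1 library.

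In the lists as deposited, H3K27ac differed more between each KO line and WT at the KO-only regions than H3K27me3 did. With H3K27 lists of equal covered length, given at the end, this no longer held for female KO. Female KO had it at 216 of them, 37.8% (33.8 to 41.9%), male KO at 228, 39.9% (35.9 to 44.1%), and WT at 56, 9.81% (7.49 to 12.5%). Over all merged regions the shares were 70.7, 74.2 and 64.3% in female KO, male KO and WT. H3K27ac was therefore less frequent at KO-only regions than over all merged regions in each line, and the gap was widest in WT. Regions of the female KO list alone had H3K27ac at 64.1% in female KO against 21.6% in WT. Regions of the male KO list alone had it at 26.4% in male KO against 9.26% in WT. A share above that of WT was thus not particular to the KO-only regions. For H3K27me3 at the KO-only regions, the shares were 49.9% (45.7 to 54.1%) in female KO, 41.9% (37.8 to 46.0%) in male KO and 39.4% in WT. The male KO and WT intervals overlap. Over all merged regions the H3K27me3 shares were 32.6, 19.8 and 15.03% in female KO, male KO and WT, so the KO-only regions lay above the general level in each line. H3K27me3 was in female KO and not WT at 82 KO-only regions, 14.4%, against 18.9% of all merged regions, and in male KO and not WT at 47, 8.23%, against 6.71% of all.

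**Figure D2:**
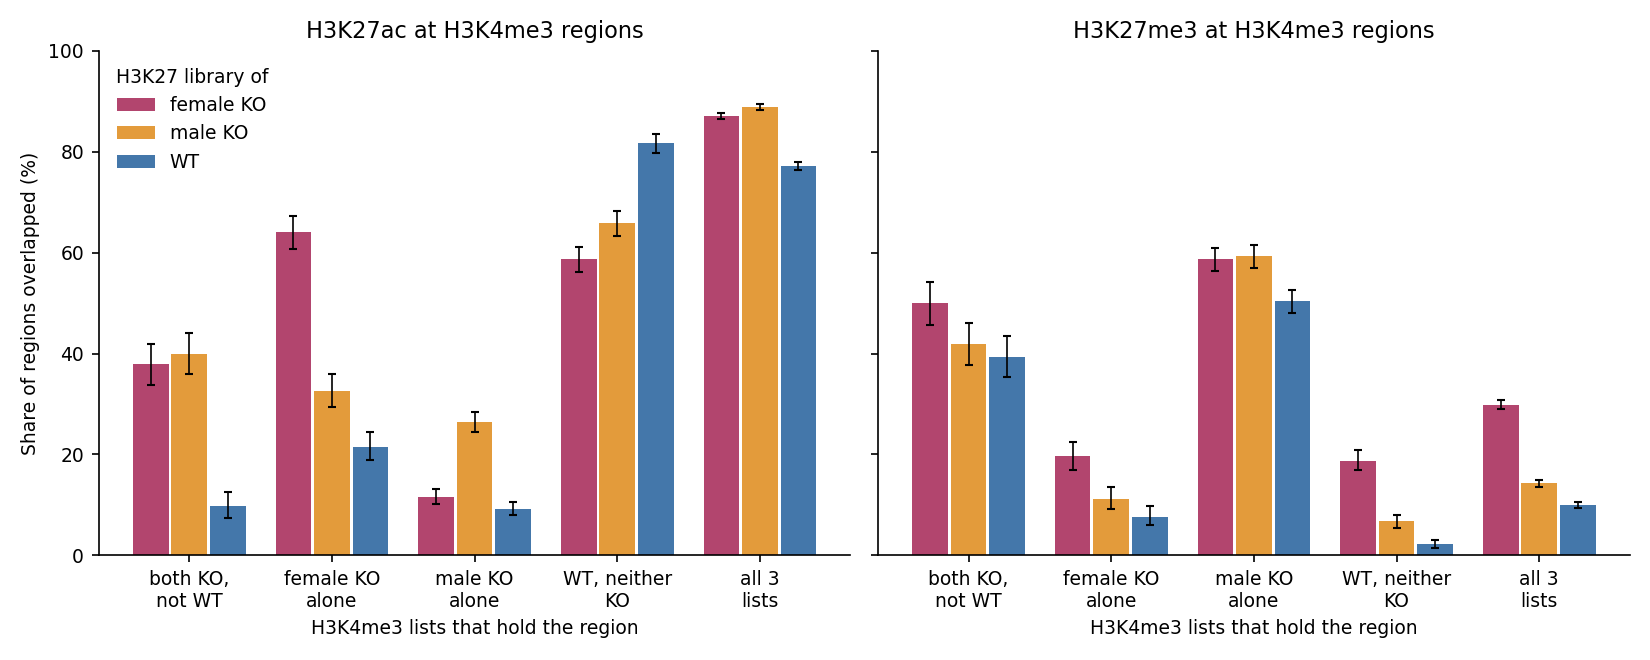
Bars give the share of H3K4me3 regions (%) that overlap H3K27ac (left) or H3K27me3 (right) in female KO, male KO and WT, for 5 sets of regions by the H3K4me3 lists that hold them, and error bars are exact 95% binomial intervals. At the KO-only regions H3K27ac is at 37.8 and 39.9% in the KO lines against 9.81% in WT, while at the regions of WT and neither KO it is highest in WT, at 81.7%.

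The number of KO-only regions with H3K27ac in a KO line and not in WT was read against all merged regions. In female KO these were 161 of 571, 28.2%, against 11.8% of all 18007 merged regions, and in male KO 172, 30.1%, against 13% of all. Much of that distance lies in the WT state, because few KO-only regions had H3K27ac in WT to begin with. Among regions without H3K27ac in WT, female KO carried it at 31.3% of the 515 KO-only regions, against 33.1% of all 6426. Male KO carried it at 33.4% of them, against 36.3% of all. Given no H3K27ac in WT, the share with H3K27ac in a KO line was thus near, and slightly under, the level over all merged H3K4me3 regions. In the other direction H3K27ac was in WT and not female KO at 1 KO-only region, against 5.41% of all merged regions. It was in WT and not male KO at 0, against 3.08% of all. Here too the WT state matters, because only 56 KO-only regions had H3K27ac in WT. Female KO lacked it at 1 of these 56, against 974 of all 11581 merged regions with H3K27ac in WT. Male KO lacked it at 0 of the 56, against 555 of the 11581.

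Where H3K27ac was called in all 3 lines, its level at the KO-only regions was higher in the KO lines than in WT on a scaled basis. Densities were divided by each library's median in bins shared by the 3 H3K27ac lists, namely 66.0 reads per kb for female KO, 82.8 for male KO and 37.4 for WT. At the 55 KO-only regions the median log2 ratio over WT was 0.27 in female KO, with 35 of 55 above 0, and 0.32 in male KO, with 39 of 55 above 0. Over the 10332 merged regions with H3K27ac in all 3 lines the medians were -0.06 and -0.02. A ratio of at least 2-fold in female KO was reached by 7 of the 55, 12.7%, against 1.44% of all, and in male KO by 4, 7.27%, against 0.765% of all. Positive medians were not particular to the KO-only regions. Regions of the female KO list alone had a median of 0.40 in female KO, with 114 of 150 above 0, and regions of the male KO list alone had 0.29 in male KO, with 93 of 131 above 0. The regions of WT and neither KO had medians of -0.33 in female KO and -0.29 in male KO.

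The KO-only regions with H3K27me3 in WT mostly kept that mark in the KO lines. Of these 225 regions, 203 had H3K27me3 in female KO, 90.2% (85.6 to 93.8%), and 192 in male KO, 85.3% (80.02 to 89.7%). It was absent in female KO from 22 regions, 9.78%, against 8.87% of all 2706 merged regions with H3K27me3 in WT. It was absent in male KO from 33, 14.7%, against 12.9% of all. Both shares were close to the level over all such regions. Counted over all 571, H3K27me3 was in WT and not female KO at 3.85%, against 1.33% of all merged regions, and in WT and not male KO at 5.78%, against 1.94% of all. Those 2 distances go with the larger share of KO-only regions that had H3K27me3 in WT to begin with.

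Where H3K27me3 was called in all 3 lines its level differed little. At 182 KO-only regions the median log2 ratio over WT, scaled in the same way, was -0.25 in female KO, with 124 below 0, and -0.11 in male KO, with 128 below 0. Over all 2238 merged regions with H3K27me3 in all 3 lines the medians were -0.14, with 1328 below 0, and -0.05, with 1280 below 0. H3K27me3 was at least 2-fold lower in female KO at 11 of the 182, 6.04%, against 5.72% of all. In male KO it was at least 2-fold lower at 0, against 0.179% of all. It was at least 2-fold higher at 0 in female KO, against 0.402% of all, and at 1 in male KO, 0.549%, also against 0.402% of all.

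H3K27ac was nearly missing from this class in WT and more frequent in each KO line in the lists as deposited. Female KO had it at 49 of the 225, 21.8% (16.6 to 27.7%), male KO at 54, 24.0% (18.6 to 30.1%), and WT at 2, 0.889% (0.108 to 3.17%). With H3K27 lists of equal covered length, a setting chosen after seeing the data, the KO shares were 5.78% and 10.2%. Of the 223 with H3K27me3 and no H3K27ac in WT, 47 had H3K27ac in female KO, 21.1%, against 14.5% of all 2295 merged regions in that state. In male KO 52 had it, 23.3%, against 26.6% of all. The KO-only regions thus lay above this level in female KO and below it in male KO. The rule asks for H3K4me3 in both KO lists, which the 2295 need not have. At the 946 regions of the male KO list alone with H3K27me3 in WT, female KO had H3K27ac at 5, 0.529%. At the 1166 such regions in all 3 lists it was at 49.7% in female KO and 66.4% in male KO. The level thus depends on which lists hold the compared regions.

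Most of the acetylated regions of this class carried H3K27me3 as well. Both marks were present at 41 regions in female KO and at 41 in male KO, 18.2% each, and H3K27ac alone at 8 and 13. H3K27me3 without H3K27ac remained the commonest state, at 162 regions in female KO, 72.0%, and 151 in male KO, 67.1%, against 223 in WT. H3K27ac was at 8 of the 22 regions without H3K27me3 in female KO, 36.4% (17.2 to 59.3%), against 41 of the 203 with it, 20.2% (14.9 to 26.4%). In male KO it was at 13 of 33, 39.4% (22.9 to 57.9%), against 41 of 192, 21.4% (15.8 to 27.8%). H3K27ac was more frequent in both KO lines where H3K27me3 was not called, but the intervals overlap.

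H3K27me3 in this class spread well past the H3K4me3 region, while H3K27ac in the male KO line stayed narrow. The overlapping H3K27me3 domains had median widths of 22.2 kb for female KO, 12.5 kb for male KO and 7.0 kb for WT. Medians over the whole lists were 9.0, 5.2 and 3.8 kb. The widest overlapping domain was taken and wide domains overlap more readily, so these 2 sets of medians are not alike. Domain widths at other H3K4me3 regions were not computed. For H3K27ac the median width was 6.6 kb in female KO and 2.5 kb in male KO. By distance from the centre, H3K27ac covered 20.4% of the regions at the centre in female KO, against 8% at 5 kb to the side of lower coordinates. In male KO it covered 23.1% at the centre and 2.22% there, and in WT 0.444% at both points. H3K27me3 covered 89.3, 83.6 and 93.8% of the centres in female KO, male KO and WT, and 64.4, 49.8 and 42.2% at that distance. WT cover was thus the highest of the 3 at the centre, where these regions were defined by it, and the lowest at 5 kb. The KO lines have longer H3K27me3 lists over the genome.

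**Figure D3:**
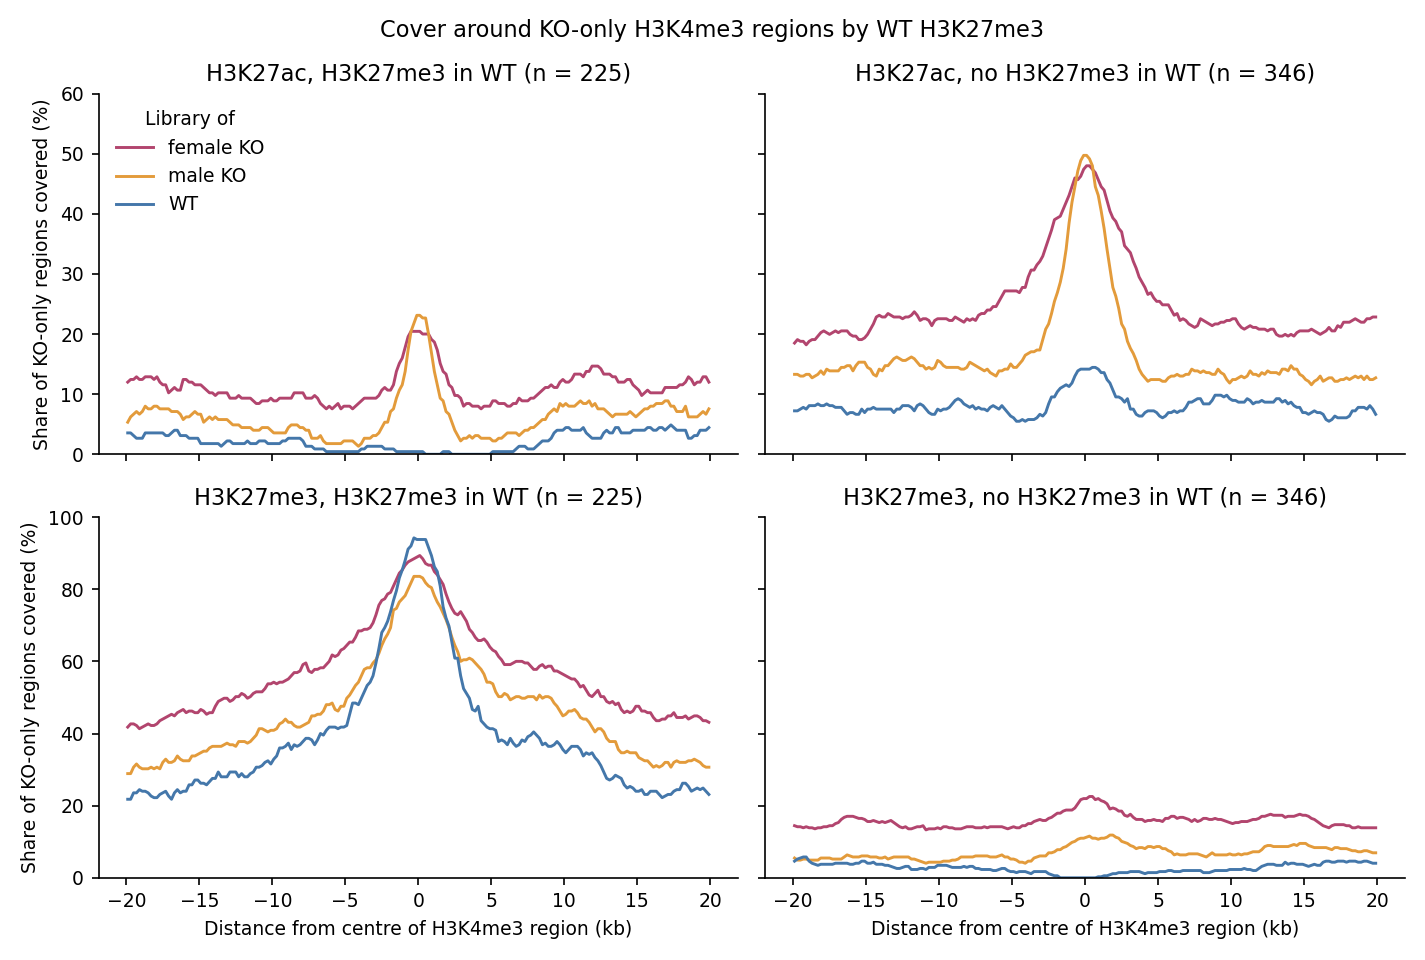
Lines give the share of KO-only regions (%) covered by H3K27ac (top) or H3K27me3 (bottom) in each 200 bp bin by distance (kb) from the centre of the H3K4me3 region, for the 225 with H3K27me3 in WT (left) and the 346 without (right). H3K27ac forms a peak at the centre in both KO lines in both classes, reaching 49.7% in male KO on the right, and no such peak is seen in WT on the left.

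Where H3K27me3 and H3K27ac met, H3K27me3 left part of the H3K4me3 region free more often in the male KO line. Of the 41 male KO regions with both marks, H3K27me3 covered the whole H3K4me3 region at 23, 56.1%, against 125 of the 151 with H3K27me3 alone, 82.8%. The WT H3K27me3 list covered the same 41 regions whole at 25, 61.0%, and the same 151 at 112, 74.2%. The male KO groups thus stood in the same order in WT, at a smaller distance. In female KO, H3K27me3 covered 32 of 41 regions with both marks whole, 78.0%, and 145 of 162 with H3K27me3 alone, 89.5%. The WT list covered the same 41 whole at 31, 75.6%, and the same 162 at 111, 68.5%, so in WT these groups stood in the opposite order.

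The other 346 KO-only regions had no H3K27me3 in WT, and H3K27ac was present at about 1 in 2 of them in each KO line. Female KO had it at 167, 48.3% (42.9 to 53.7%), male KO at 174, 50.3% (44.9 to 55.7%), and WT at 54, 15.6% (11.9 to 19.9%). Over all merged regions, with or without H3K27me3 in WT, the shares were 70.7, 74.2 and 64.3%, so this class lay below that level in each line. All but 1 of the 54 regions with H3K27ac in WT had it in female KO, and 54 of 54 had it in male KO. The remaining 292 had neither mark in WT. Of these, female KO carried H3K27ac at 114, 39%, against 43.4% of all 4131 merged regions in that state. Male KO carried it at 120, 41.1%, against 41.7% of all. H3K27me3 was at 77 of the 292 in female KO, 26.4%, against 31.2% of all in that state, and at 46 in male KO, 15.8%, against 16.2% of all. These shares were near or under the level over all merged regions.

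H3K27me3 was present in a KO line at some of the 346. It was called at 82 in female KO, 23.7%, against 22.3% of all 15301 merged regions without it in WT. In male KO it was called at 47, 13.6% (10.2 to 17.7%), against 7.89% of all. Both marks were seen at 24 regions in female KO and 15 in male KO. Regions with both marks or neither were not counted over all merged regions without H3K27me3 in WT. Neither mark was seen at 121 regions in female KO and 140 in male KO, against 292 in WT, so H3K4me3 stood alone at 35.0% of this class in female KO and 40.5% in male KO.

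**Figure D4:**
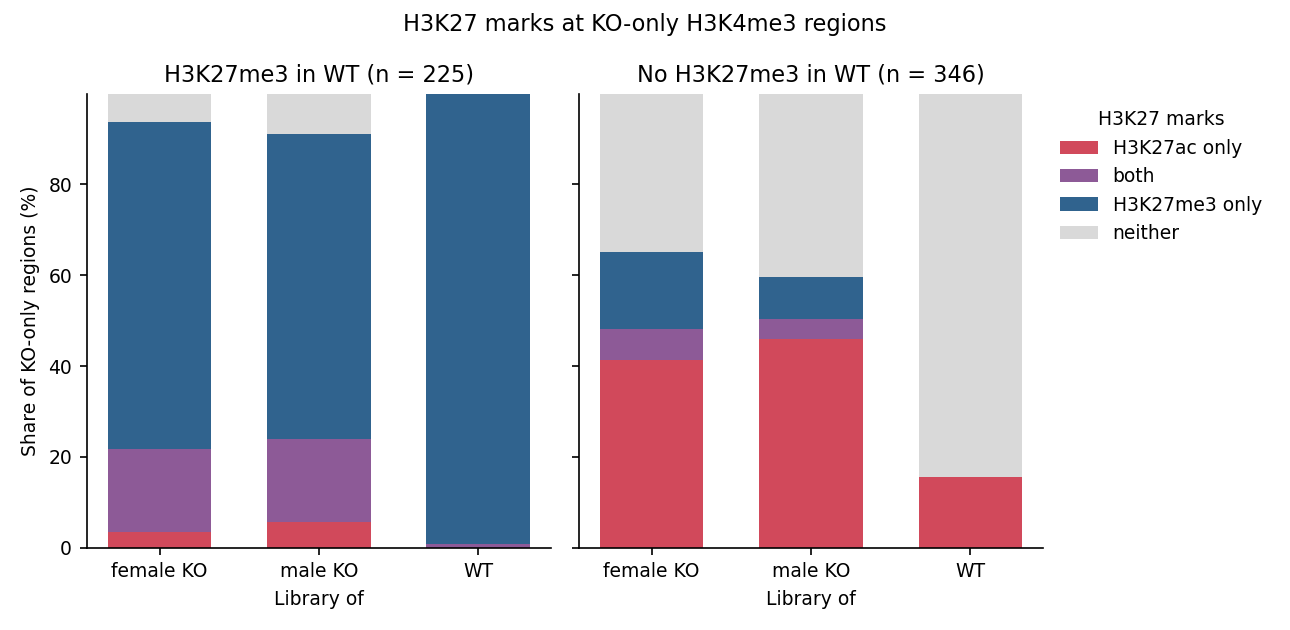
Stacked bars give the share of KO-only regions (%) with H3K27ac only, both H3K27 marks, H3K27me3 only or neither, in female KO, male KO and WT, for the regions with H3K27me3 in WT (left, n = 225) and without it (right, n = 346). H3K27me3 alone stays the commonest state on the left in the KO lines, at 72.0 and 67.1%, and H3K27ac alone is the commonest on the right, at 41.3 and 46.0%.

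Where H3K27ac was called in a KO line and not in WT, the KO region mostly touched no called WT region. In female KO 138 of 161 KO-only regions of this kind lay in an H3K27ac region that touched no WT H3K27ac region anywhere along its length, and in male KO 167 of 172. Likewise, of the 82 with H3K27me3 in female KO and not in WT, 64 lay in a region with no called WT H3K27me3, and of the 47 in male KO, 43. The same counts were not made over all merged regions. WT had the fewest reads in regions for both marks, so a WT region below the caller's threshold would be missed here.

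Among the KO-only regions, H3K27ac was more frequent at wide than at narrow ones in both KO lines. Of the 64 that spanned at least 5 kb, female KO had H3K27ac at 54, 84.4%, male KO at 39, 60.9%, and WT at 10, 15.6%. Of the 507 narrower ones the shares were 32.0, 37.3 and 9.07%. H3K27me3 did not differ in this way, with 45.3, 42.2 and 42.2% at the wide regions and 50.5, 41.8 and 39.1% at the narrow ones. Shares by width were not computed for other H3K4me3 regions, and a longer region meets an overlap of 1 bp more readily. Regions in all 3 lists, with a median width of 7.2 kb, had H3K27ac at 87.0, 88.8 and 77.2% in female KO, male KO and WT.

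Within the KO-only regions, H3K27ac in WT was most frequent where H3K4me3 of the KO lines was weakest. When the regions were ranked by the lower of their KO densities and split into 3 groups of 190 or 191, WT had H3K27ac at 16.8% of the weakest group, 9.47% of the middle group and 3.16% of the strongest. Over the same groups, from weakest to strongest, female KO had it at 45.5, 35.3 and 32.6% and male KO at 44.5, 33.7 and 41.6%. The strongest group thus had the least H3K27ac in WT, at 6 regions against 32 in the weakest, while the male KO shares did not fall steadily. The ranking used unscaled densities of the lists that chose the regions. No such split was made for other H3K4me3 regions, so the order is a description only.

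Among the KO-only regions with H3K27me3 in WT, the one with the highest lower KO density lay on chromosome 9 (87623201 to 87627000). It held 687 H3K4me3 reads in female KO and 556 in male KO over 3.8 kb. Female KO had H3K27me3 over 2.4 kb, male KO over 0 kb and WT over all 3.8 kb, and H3K27ac covered 2.2 kb, 3.0 kb and 0 kb. Male KO thus had H3K27ac without H3K27me3 there, WT the reverse, and female KO both.

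The region on chromosome 2 (106531201 to 106538000) was free of H3K27me3 in both KO lines. It held 1461 H3K4me3 reads in female KO and 676 in male KO over 6.8 kb. H3K27ac covered 4.0 kb in female KO, with 349 reads, and 3.2 kb in male KO, with 279 reads, and none in WT. H3K27me3 covered 4.2 kb in WT, with 84 reads. It had the highest lower KO density among regions with H3K27me3 in WT and in neither KO list.

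The other 4 of the 6 strongest regions with H3K27me3 in WT kept it in at least 1 KO line. On chromosome 11 (102678401 to 102682000), with 466 H3K4me3 reads in female KO and 325 in male KO, H3K27me3 covered all 3.6 kb in all 3 lines. H3K27ac lay over 2.6 kb of it in female KO and 3.2 kb in male KO and none in WT, so both marks were called together. On chromosome 17 (51950601 to 51954200), with 418 and 570 reads, female KO had H3K27me3 over 3.0 kb, male KO over 0 kb and WT over 2.8 kb. H3K27ac was there in male KO, over 2.2 kb. The region on chromosome 8 (49639401 to 49641800), with 215 and 244 reads, had H3K27me3 over its 2.4 kb in male KO and WT, none in female KO, and no H3K27ac in any line. A 4.6 kb region on chromosome 18, with 410 and 484 reads, had 4.0 kb of H3K27me3 for female KO, 3.6 kb for male KO and 4.2 kb for WT, and H3K27ac in male KO, over 3.2 kb. The strongest regions of this class thus showed several combinations of the H3K27 marks, which differed between the KO lines.

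Of the regions with H3K27me3 in WT and in neither KO list, the next 4 by H3K4me3 were weaker. On chromosome 15 (91020601 to 91023800) there were 208 H3K4me3 reads in female KO and 145 in male KO, on chromosome 8 (39722001 to 39725000) 118 and 227, and on chromosome 6 (3953201 to 3954800) 67 and 59. These 3 had no H3K27ac in any line, so H3K4me3 was the only one of the 3 marks called there in the KO lines. The region on chromosome 5 (102908601 to 102912200), with 128 and 194 H3K4me3 reads, had H3K27ac over 2.2 kb in female KO, 3.4 kb in male KO and none in WT. These 4 held between 16 and 49.8 H3K27me3 reads in WT.

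Among the regions with no H3K27me3 in WT, the strongest lay on chromosome 5 (17864001 to 17868000), with 448 H3K4me3 reads in female KO and 456 in male KO over 4.0 kb. H3K27ac covered 2.4 kb of it in male KO and none in female KO or WT. On chromosome 3 (45179401 to 45186000), with 924 and 688 reads over 6.6 kb, H3K27me3 covered 5.0 kb in female KO and 3.8 kb in male KO and none in WT, and H3K27ac was in no line. H3K4me3 and H3K27me3 were thus both called there in the KO lines and neither was called in WT.

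A second region on chromosome 3 (113731401 to 113736000) held 488 and 418 H3K4me3 reads in female KO and male KO, with H3K27ac over 3.6 kb in male KO and none in female KO. On chromosome 7 (148006201 to 148008800), with 236 and 263 reads, H3K27ac covered 1.4 kb in female KO and 2.4 kb in male KO, and H3K27me3 1.2 and 0.2 kb. On chromosome 14 (26424401 to 26428800), with 505 and 389 reads, it covered 4.2 and 2.8 kb, and H3K27me3 covered 2.2 kb in female KO. These 3 had neither H3K27 mark in WT. The region on chromosome 17 (23671001 to 23672400), with 177 and 116 reads over 1.4 kb, carried no H3K27 mark in any line.

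The KO-only regions with the most H3K27ac in both KO lines and none in WT were none of the 6 named above for H3K4me3 in their class. On chromosome 9 (44315001 to 44319800), H3K27ac reached 134 reads per kb in female KO and 143 in male KO, with H3K4me3 at 42.3 and 23.1 reads per kb. On chromosome 6 (34557601 to 34562600) H3K27ac stood at 79.4 and 94.9 reads per kb, and on chromosome 5 (5418401 to 5421000) at 71.9 and 92.8. H3K27ac covered each of these whole in both KO lines. A 4.8 kb region on chromosome 18 had 78.5 and 112 reads per kb, and one on chromosome 1 (12610401 to 12613000) had 66.5 and 114, with H3K4me3 at 33.1 and 17.3 reads per kb. All 5 were free of H3K27me3 in all 3 lines.

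At the upper end by reads, 20 of the 571 reached the median count of the female KO list, 987.5 reads, and 35 that of the male KO list, 375 reads. Only 5 reached both, and they are named here after their values were seen. The region on chromosome 2 above was 1 of them. The largest count was on chromosome 5 (143719001 to 143728600), with 3228 H3K4me3 reads in female KO and 467 in male KO. H3K27ac covered 9.6 kb of it in female KO and 6.2 kb in male KO, and H3K27me3 was absent in female KO but covered 7.4 kb for male KO and 7.6 kb for WT. On chromosome 4 (109645601 to 109657200) there were 1677 and 657 reads, with H3K27ac over 6.6 and 7.6 kb and H3K27me3 of 0 kb for female KO, 11.6 kb for male KO and 7.2 kb for WT. The regions on chromosome 10 (125397201 to 125408000), with 1604 and 473 reads, and chromosome 6 (15668801 to 15675200), with 1369 and 386, had H3K27ac in both KO lines and no H3K27me3 in any line. All 5 had H3K27ac in female KO and male KO and none in WT.

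The KO-only regions were scattered over the genome. With neighbours joined up to 100 kb apart, 505 stood alone, 27 pairs and 4 groups of 3 were found, and there was no larger group. The groups of 3 lay on chromosome 3 (96238201 to 96290200), chromosome 12 (120073801 to 120094000), chromosome 13 (113787601 to 113838200) and chromosome 16 (20588801 to 20696000). In the group on chromosome 12 all 3 regions had H3K27me3 in all 3 lines. Of the 571, 268 lay more than 50 kb from any WT H3K4me3 region, 46.9%, against 50.7% of the regions of the male KO list alone and 19.5% of those of the female KO list alone.

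By chromosome, KO-only regions made up between 1.81% of the merged regions on chromosome 5 (22 of 1217) and 5.80% on chromosome 18 (32 of 552). Chromosome 6 had 5.25% (3.90 to 6.90%), chromosome 13 4.76% (3.41 to 6.45%) and chromosome 3 4.49% (3.28 to 5.98%). The lower bounds of chromosomes 3, 6, 13 and 18 lay above the 3.17% of all autosomes. The upper bounds of chromosomes 1, 5 and 11, at 3.08, 2.72 and 3.04%, lay below it. These bounds cover counting error only and are not a test across chromosomes. H3K4me3 reads over regions in all 3 lists, given as log2 KO over WT minus the median chromosome, were 0.08 and 0.05 on chromosome 18 in female KO and male KO. On chromosome 6 they were 0.38 and 0.00, on chromosome 13 0.12 and 0.20, and on chromosome 4, where KO-only regions were 3.87%, 0.63 and 0.38. Over 19 chromosomes, the share of KO-only regions and this ratio had a Spearman's rho of 0.64 for female KO and 0.49 for male KO. Both measures come from the same libraries and the number of gene copies is not in the lists, so the part of chromosome copy number in these shares was not tested.

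**Figure D5:**
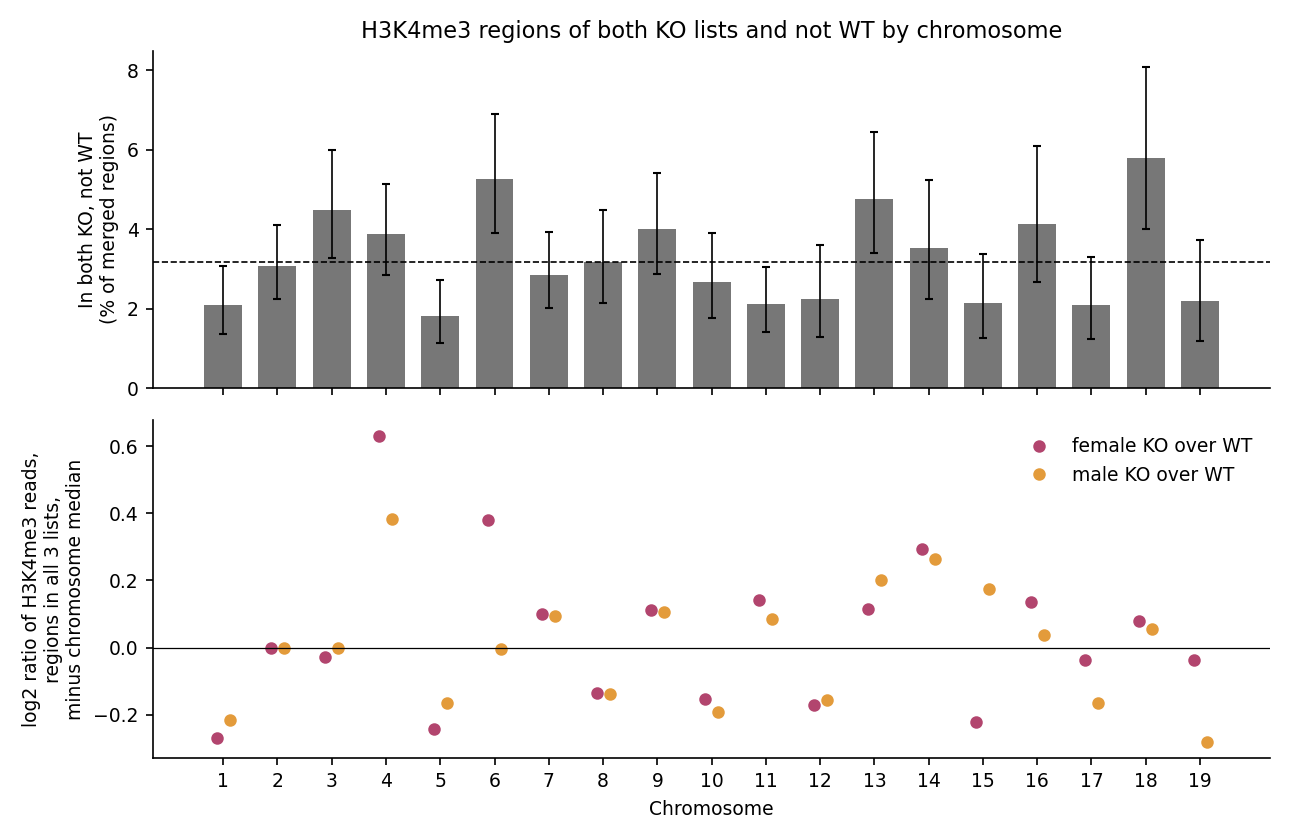
The upper panel gives KO-only regions as a share of merged H3K4me3 regions (%) on each autosome with exact 95% binomial intervals, and the dashed line marks 3.17%. The lower panel gives the log2 ratio of H3K4me3 reads of female KO and male KO over WT in regions held by all 3 lists, minus the median chromosome, and chromosome 4 stands highest, at 0.63 and 0.38.

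These shares rest on where lists end. In a setting chosen after seeing the data, the lists of each H3K27 mark were reduced to the same covered length. Then female KO had H3K27ac at 13.3% of the KO-only regions, male KO at 23.8% and WT at 9.81%. H3K27me3 was then at 25.7, 36.1 and 39.4%, so WT stood above both KO lines. At the 346 regions without H3K27me3 in WT, H3K27ac was then at 18.2% in female KO and 32.7% in male KO. With the H3K4me3 lists reduced in this way as well, 113 KO-only regions were found. Keeping regions at or above the median count of their list left 208, with H3K27ac at 66.8% in female KO and 62.5% in male KO, and H3K27me3 at 23.6, 15.4 and 14.9% in female KO, male KO and WT.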

How the data were processed

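Per the submitters' processing notes, Bowtie 1.1.2, SICER 1 and build mm9 were used. The authors' deposited lists, 1 per library, give chromosome, start, end and a whole number, taken as each region's read count. The lists have no header, so this reading rests on the values and on the layout that SICER writes. For the control, window, gap and false discovery rate nothing is given in the sources used here. All borders fell on a 200 bp grid, and no region was filtered.

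Counts were spread evenly over each region, and overlap meant at least 1 bp. Coordinates are 1-based mm9 positions. A recount with bedtools 2.31.1 gave the same 571 of 18007, and the overlap steps were tested on simulated lists with planted regions. Tools were matplotlib 3.10.9, scipy 1.17.1, pandas 2.3.3, numpy 2.4.6 and Python 3.11.15. No gene annotation or genome of build mm9 was used here, so no gene is named, no sequence is printed, and neither Kdm6a nor markers of the labelled tissue were checked. The members, lists and rules were chosen with earlier results of these data known.

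Regions named are, by rule, the 6 with the highest lower KO H3K4me3 density in each class of WT H3K27me3. Also named are the 5 with the highest lower KO H3K27ac density and none in WT, the 5 with H3K27me3 in WT and neither KO and the highest lower KO H3K4me3 density, and 2 on each side of the rule's edge. Alternatives were other cutoffs, overlaps, list lengths and chromosomes.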

Additional observations from a re-analysis of the deposited data

Results flagged for a closer look

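Outside the autosomes, 24 H3K4me3 regions on chromosome X were in both KO lists and not in WT, 4.04% of the 594 merged regions there, and none on chromosome Y. They stand apart because the rule for KO-only regions leaves this chromosome out. Female KO had H3K27me3 at 15 of them, male KO at 4 and WT at 2, and H3K27ac at 5, 3 and 1. The female KO line differs from the male lines in sex, which cannot be told apart from genotype here.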

How the results depend on the processing

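For 15 counts and shares, 11 alternatives gave 153 values, of which 105 stayed within 1.5 times (counts) or within the 95% interval (shares) and 48 moved. None of the 15 moved with counts scaled to equal density in shared bins, regions joined within 1 kb, no WT region allowed within 5 kb, chromosomes X and Y added or chromosome 4 left out. The scaling to equal density removed few regions and so tests little. H3K27ac was higher in each KO line than in WT in 10 of 10 alternatives that gave a share, but H3K27me3 only in 7 for female KO and 8 for male KO. The alternatives reuse the same libraries, so they are not replicates. Those that cut the WT H3K4me3 list can also describe other regions than the 571. With H3K27 lists of equal covered length, H3K27ac was at 13.3% (10.6 to 16.4%) in female KO and 9.81% (7.49 to 12.5%) in WT, and these intervals overlap. For what moved, the cause was not tested.

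Every list, that of WT included, was cut at its median count, which gave 208 regions. Of these, 31 had H3K27me3 in WT and 177 did not. With only the KO H3K4me3 lists cut, 5 regions were found. Most of the 208 thus overlapped a WT H3K4me3 region below the WT median count and were not among the 571. H3K27ac was then at 66.8% in female KO and 62.5% in male KO, and H3K27me3 at 23.6, 15.4 and 14.9% in female KO, male KO and WT. H3K27ac with and without WT H3K27me3 was 64.5 and 67.2% in female KO, 54.8 and 63.8% in male KO, and 0% with it in WT. Lists of the same covered length, with the WT H3K4me3 list shortened too, gave 113, 46 with H3K27me3 in WT and 67 without. H3K27ac was at 52.2, 54.9 and 15.9%, and H3K27me3 at 17.7 and 26.5% in female KO and male KO, against 40.7% in WT. H3K27ac with WT H3K27me3 was 39.1, 45.7 and 0%, and without it 61.2, 61.2 and 26.9%. Asking for cover of at least 50% gave H3K27ac at 35.5% in male KO, H3K27me3 at 35% in WT, and H3K27ac at 0% in WT with WT H3K27me3 and 44.1% in male KO without it.

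Chosen after seeing the data, KO H3K4me3 lists at or above their median count left 5 regions, 3 with H3K27me3 in WT and 2 without, too few for shares. H3K27 lists of equal covered length over the same 571 regions, also chosen then, gave H3K27ac at 13.3 and 23.8% and H3K27me3 at 25.7 and 36.1% in female KO and male KO. H3K27ac was 5.78 and 10.2% with WT H3K27me3, and 18.2 and 32.7% without it. H3K27 lists with the same lowest scaled density, likewise chosen then, gave H3K27ac at 32.9% in each KO line and H3K27me3 at 35.2% in female KO. H3K27ac was 18% in male KO with WT H3K27me3, and 42.1 and 42.4% in female KO and male KO without it.

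No paired analysis was possible because each mark had 1 library per line and the labels give no replicate numbers. WT had the fewest reads in H3K27 regions, total depth is unknown, and 1 library per line limits every difference.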
